A study of Mus musculus with 3 samples.

Results

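Carbonic anhydrases and the transporters that work beside them were examined in the epithelium of the mouse intestine by single-cell RNA sequencing (scRNA-seq). The set holds 9 genes, Car2, Car4, Cftr, Slc12a2, Slc26a3, Slc26a6, Slc9a3, Slc4a4 and Slc4a7, which were picked by symbol from a features list of 51912 genes, and all 9 were found in it. The samples were 2 libraries from VillinCreERT2, Arid3a fl/fl intestine (Arid3a cKO) and 1 library from VillinCreERT2 intestine without the floxed allele in its label (WT). In both groups the Cre recombinase, which tamoxifen switches on, is driven by the Villin promoter and so acts in intestinal epithelial cells. All animals, controls included, received tamoxifen at 8 to 10 weeks of age, and tissue was taken 1 month after the first injection. Cells came from crypt preparations, and the sort kept live cells with Epcam, a surface protein of epithelium, and without CD45 or CD31, which leukocytes and endothelium carry.

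Absorption and secretion of salt and water by the gut rest on a division of labour that these genes represent. In secreting cells, the Na-K-2Cl cotransporter encoded by Slc12a2 loads chloride across the basolateral membrane, and the channel encoded by Cftr releases chloride and bicarbonate into the lumen. In absorbing cells, the apical sodium-proton exchanger NHE3 (Slc9a3) takes up sodium in step with the chloride-bicarbonate exchangers DRA (Slc26a3) and PAT1 (Slc26a6). Carbonic anhydrases interconvert carbon dioxide and bicarbonate, in the cytosol for Car2 and at the outer face of the membrane for Car4, and sodium-bicarbonate cotransporters (Slc4a4, Slc4a7) carry bicarbonate into the cell.

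The kept cells numbered 5594 of 25554 barcodes, from 1550 to 2134 per library, with a median of 29895 to 35764 UMIs (unique molecular identifiers, each standing for 1 captured transcript) per cell. The limit of 15% mitochondrial UMIs was exceeded by 66.4% to 79.2% of barcodes. The libraries shared 11 to 18 barcodes pairwise. Arid3a itself stood at 0.592 and 0.894 CPM (UMIs scaled to a total of 1000000) over all cells of the Arid3a cKO libraries and at 2.57 CPM in WT. These tags come from the 3′ end and may lie outside the floxed stretch. Markers of T cells summed to 2.51 and 12.7 CPM in the Arid3a cKO libraries and to 19.2 CPM in WT over all cells, and to less than 0.4 CPM in enterocytes of each library, where 5 or 6 of the 8 markers had no UMI. Fabp6, a bile acid binding protein of the ileum, lay at or below 0.145 CPM in enterocytes of each library, and Car1, a carbonic anhydrase typical of the colon, had no UMI in the kept cells of any library.

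Clustering without the 9 genes gave 13 clusters. They were named from marker genes as stem-like cells (ISC, 1075 cells), transit-amplifying (TA) cells (695), goblet cells (395), enteroendocrine cells (176), tuft cells (99), Paneth cells (80) and enterocytes (2122 cells in 4 clusters led by Dnase1, Ms4a18, S100g and Isg15). Among the top 10 genes of the ISC cluster, the S phase genes Ung, Mcm3, Hells and Mcm6 stood beside 3 stem cell markers, and at a finer resolution 481 cells formed a cluster led by such genes with 0 stem cell markers in its top 50, so the class includes replicating cells. A cluster of 749 cells led by Ccl20 had too few markers for a name. In it, 8 enterocyte genes stood at a median of 9.04% of their enterocyte level and 13 ISC genes at a median of 4.72% of their ISC level. It took up 15.98% and 12.8% of the cells of the Arid3a cKO libraries and 10.9% of WT. A further cluster of 203 cells led by Gm42418 stayed unnamed and was left out of the named classes. CPM were computed for each class of each library. Where 3 values follow one another, the first belongs to Arid3a cKO 1, the second to Arid3a cKO 2 and the last to WT. Because each transcript is tagged near its 3′ end and counted by its UMI, these values do not scale with transcript length. Intervals are exact at 95%, Poisson for levels and Clopper-Pearson for shares of cells, and cover counting error only.

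Promoters were at hand for 7 of the 9 genes. The 250 bases before the RefSeq start on GRCm38.p6 are printed for 4 of them, chosen because their levels peaked in different cells of the lineage. Cftr was highest in ISC and TA cells and Car4 in the Ccl20-led cluster and the Ms4a18-led enterocytes. Slc26a3 was high across enterocytes, and Slc4a7 was highest in the S100g-led enterocytes. Capitals mark matches on either strand to 6 short motifs, namely the GC box (GGGCGG), the TATA box (TATAAA), the HNF1 core (GTTAAT), the CDX2 motif (TTTATG), the GATA motif (AGATAA) and an HNF4 site (CAAAGTCCA). The motifs were settled on after matches had been counted. The RefSeq starts of Slc26a3 and Slc4a7 lie inside the longer gene spans of GENCODE given with the levels.
Cftr, chr6:18170437-18170686, plus strand: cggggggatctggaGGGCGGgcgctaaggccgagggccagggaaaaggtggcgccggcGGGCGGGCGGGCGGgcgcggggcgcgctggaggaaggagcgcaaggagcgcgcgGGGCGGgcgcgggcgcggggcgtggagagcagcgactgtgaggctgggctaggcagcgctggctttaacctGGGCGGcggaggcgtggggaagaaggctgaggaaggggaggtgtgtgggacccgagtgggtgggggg
Car4, chr11:84957504-84957753, plus strand: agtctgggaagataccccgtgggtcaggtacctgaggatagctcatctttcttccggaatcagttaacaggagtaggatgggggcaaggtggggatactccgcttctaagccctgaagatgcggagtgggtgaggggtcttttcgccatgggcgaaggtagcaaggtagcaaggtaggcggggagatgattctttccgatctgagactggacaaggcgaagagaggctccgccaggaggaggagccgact
Slc26a3, chr12:31437969-31438218, plus strand: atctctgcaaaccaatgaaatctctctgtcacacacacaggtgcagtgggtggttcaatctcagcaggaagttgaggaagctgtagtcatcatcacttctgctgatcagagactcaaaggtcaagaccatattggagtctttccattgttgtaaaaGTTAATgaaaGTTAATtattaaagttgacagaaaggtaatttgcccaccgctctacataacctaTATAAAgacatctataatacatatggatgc
Slc4a7, chr14:14718534-14718783, plus strand: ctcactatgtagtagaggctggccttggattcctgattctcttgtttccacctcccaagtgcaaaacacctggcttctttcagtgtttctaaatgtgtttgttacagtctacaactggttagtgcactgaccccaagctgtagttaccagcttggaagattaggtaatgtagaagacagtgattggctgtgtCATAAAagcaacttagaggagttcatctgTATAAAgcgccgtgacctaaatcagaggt

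The Cftr window was rich in G and C (76.4%) and held 6 GC boxes, 3 of which overlap. Among all 32851 windows of this length, 32.7% held at least 1 GC box, and the median content of G and C was 52.4%. The Slc26a3 window was at 38.8% G and C, with a TATA box starting 30 bases before the start and 2 HNF1 cores. The Slc4a7 window was at 43.6%, with a TATA box starting 29 bases and a CDX2 motif 58 bases before the start. A TATA box occurred in 12.4% of all windows, an HNF1 core in 6.43% and a CDX2 motif in 10.8%. The Car4 window held none of the 6 motifs. Among windows not printed, that of Slc9a3, a gene higher in enterocytes, was at 67.6% G and C with 3 GC boxes and no other motif. That of Slc26a6, also higher in enterocytes, was at 53.2% with 1 GC box and no other motif. The Slc4a4 windows were at 82% with 1 GC box and at 48.8% with 0 motifs. Of the 7 genes only Cftr was higher in ISC and TA cells, so whether promoter type differs between the classes cannot be judged from these windows. No GATA motif (9.99% of all windows) and no HNF4 site (0.384%) was found in the windows of the 7 genes. These matches describe the letters only, and binding was not measured.

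To see in which stage of the lineage each gene is expressed, enterocytes were first compared with ISC and TA cells within each library. A gene was counted when its log2 ratio of CPM + 5 was at least 1 in the same direction in all 3 libraries. This rule was chosen after values had been seen, and it is a description, not a test. Of the 9 genes, 6 were higher in enterocytes (Car2, Car4, Slc26a3, Slc26a6, Slc9a3 and Slc4a7) and 2 were higher in ISC and TA cells (Slc12a2 and Cftr). Over all 8326 genes with at least 10 CPM in either class, 11.6% were higher in enterocytes by the same rule, and 24.2% were higher in ISC and TA cells. Slc4a4 was the exception, with log2 ratios of 0.81, 1.13 and 1.07. Since these genes took no part in the clustering, their difference between classes was not built in, although the classes were defined by other genes of the same cells.

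The pathways around the 9 genes were described through 90 further genes in 9 lists. By the same rule 18 of them were higher in enterocytes while 9 were so in ISC and TA cells, of 47 with at least 10 CPM. Over all genes these shares were 11.6% and 24.2%, so the share higher in ISC and TA cells did not exceed that of all genes. Genes named in this paragraph and the next passed that rule, apart from Kcnk5, and were named because of it. Of the potassium channels that keep chloride secretion going by recycling potassium, 3 of 4 measured members were higher in ISC and TA cells, namely Kcnq1, its partner Kcne3 and the calcium-activated Kcnn4. The other, Kcnk5, lay the opposite way and just missed the rule, with log2 ratios of 0.95, 1.07 and 1.08. Kcne3 stood at 236, 244 and 225 CPM in ISC and TA cells and at 2.80, 1.98 and 1.18 CPM in enterocytes. Its mean log2 ratio was -5.11 ± 0.14 (SD, n = 3), close to that of Slc12a2 (-5.66 ± 0.10) and much larger in size than that of Cftr (-1.58 ± 0.07).

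The sodium-proton exchange list leaned to enterocytes, with 4 of 7 measured members higher in enterocytes and 0 higher in ISC and TA cells. They were Slc9a2, a second plasma membrane exchanger, and Slc9a3r1, Pdzk1 and Pdzd3, scaffold proteins with PDZ domains that bind NHE3 at the brush border. Pdzk1 had a mean log2 ratio of 3.89 ± 0.14 and Slc9a3r1 of 2.67 ± 0.09, against 3.22 ± 0.10 for Slc9a3. Guca2b, which encodes the peptide uroguanylin, was the most abundant gene of the lists in enterocytes (2702, 2796 and 2428 CPM) and its mean log2 ratio was 5.29 ± 0.26. Gucy2c, the receptor for this peptide, differed much less (1.13 ± 0.01). Atp1b1, a subunit of the sodium pump, was also higher in enterocytes, by 1.43 ± 0.13, while Fxyd3, a small regulator of the pump, was higher in ISC and TA cells (-2.96 ± 0.18). The water channels were split as well, with Aqp8, Aqp3 and Aqp11 higher in enterocytes and Aqp1 and Aqp4 higher in ISC and TA cells. Among carbonic anhydrases outside the set, Car8 and Car12 were higher in ISC and TA cells, at no more than 17.9 CPM in any library.

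**Figure D1:**
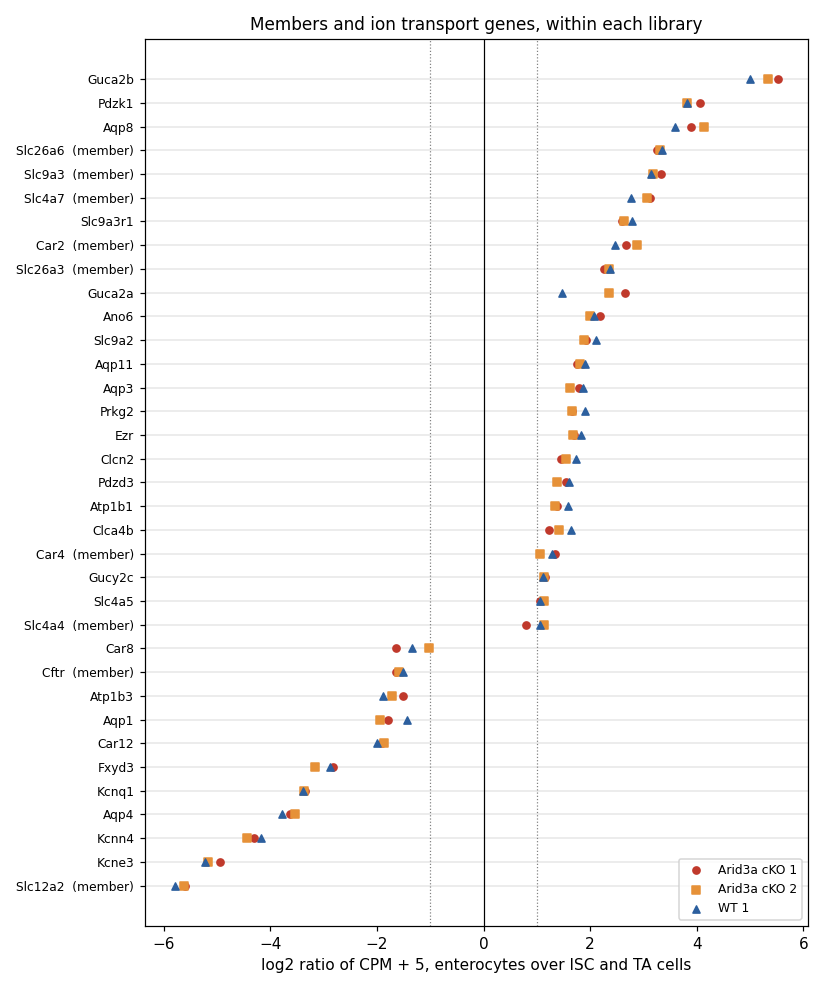
Log2 ratio of CPM + 5 between enterocytes and ISC and TA cells (x axis) for the 9 genes, marked as members, and for other ion transport genes that passed the rule (y axis), with 1 point per library. Dotted lines stand at -1 and 1. Slc12a2, Kcne3 and Kcnn4 lay farthest to the side of ISC and TA cells and Guca2b, Pdzk1 and Aqp8 farthest to the enterocyte side, and the 3 libraries lay close together for most genes.

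Slc12a2 (ENSMUSG00000024597, chromosome 18, 57878678 to 57946821) had the steepest gradient of the 9 genes. Position in the tissue was not measured, and gradients are between cell classes. Its level in ISC was 612, 567 and 529 CPM, and in TA cells it was 465, 330 and 397 CPM. In enterocytes it was 6.43, 4.25 and 3.54 CPM. The enterocyte level over all libraries was 0.851% of the ISC level, and 13 ISC marker genes had 0.265% to 11.6% of their ISC level in enterocytes (median 0.788%), so Slc12a2 in enterocytes lay within the range of these stem cell genes. Goblet cells kept 193, 172 and 138 CPM, below ISC and TA cells and above enterocytes in each library. Cells were then thinned to 8000 UMIs each, and shallower cells were left out (17 of 1075 ISC, 30 of 2122 enterocytes, 61 of 395 goblet, 39 of 176 enteroendocrine, 35 of 99 tuft and 7 of 80 Paneth cells), so that shares in the last 4 of these classes describe their deeper cells. Of the thinned cells, 84.5% of ISC held a Slc12a2 UMI (894 of 1058 cells), 42.8% of goblet cells (143 of 334) and 3.68% of enterocytes (77 of 2092), with median depths before thinning of 29060, 26750 and 32520 UMIs.

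Classes with few cells could not be ranked for Slc12a2. In enteroendocrine cells it stood at 173, 348 and 90.3 CPM, but 3 cells carried 89.9% to 95.7% of these UMIs in each library. In tuft cells, at 307, 278 and 205 CPM, 3 cells carried 65.1% to 97.4%. Paneth cells had 176, 34.6 and 68.9 CPM, and the Arid3a cKO 2 value came from 17 cells.

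Cftr (ENSMUSG00000041301, chromosome 6, 18170687 to 18322768) was also highest in ISC and TA cells, but its gradient was shallow. ISC had 123, 107 and 106 CPM, and TA cells had 119, 106 and 107 CPM, so ISC and TA cells did not differ beyond the spread between libraries. The Ccl20-led cluster followed at 66.2, 67.4 and 61.1 CPM, and enterocytes at 35.4, 32.1 and 34.1 CPM. Enterocytes thus held about 30.2% of the ISC level, where Slc12a2 had less than 1% of it. After thinning, 57.1% of ISC (54.0 to 60.1%) and 22.2% of enterocytes (20.5 to 24.1%) held a Cftr UMI. Shares were lower in enteroendocrine cells (5.84%, 8 of 137 cells, 2.55 to 11.2%, median depth 16170 UMIs) and Paneth cells (6.85%, 5 of 73, 2.26 to 15.3%, median depth 131000 UMIs). Their intervals overlapped those of tuft cells (9.38%, 6 of 64, 3.52 to 19.3%) and goblet cells (11.7%, 39 of 334, 8.44 to 15.6%), so these classes were not ranked. The highest count in a thinned cell was 6 UMIs, in ISC and TA cells. Without thinning it was 35 UMIs, in a TA cell, and 5% of the enteroendocrine cells (9 of 176) held 84.7% of that class's 72 Cftr UMIs. Cftr overlaps the gene Gm15595 on its own strand, and reads in the shared stretch cannot be told apart by strand.

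**Figure D2:**
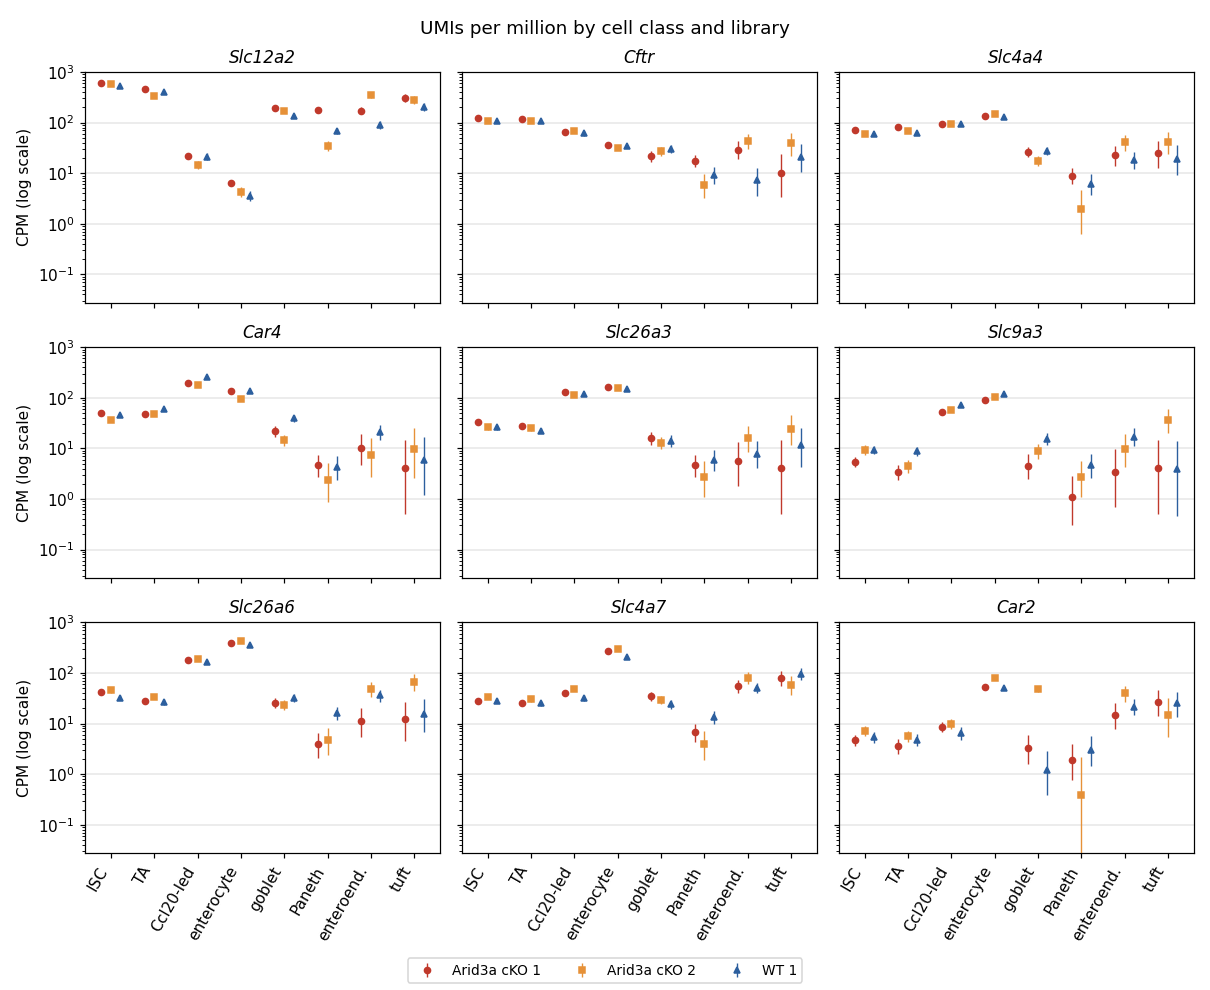
CPM on a log scale (y axis) of the 9 genes in 8 cell classes (x axis), with 1 point per library and bars for exact 95% Poisson intervals. Slc12a2 and Cftr were highest in ISC and TA cells, Car4 in the Ccl20-led cluster, and the other 6 genes in enterocytes.

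Of the bicarbonate importers, Slc4a4 (chromosome 5, 88886818 to 89239653), an electrogenic sodium-bicarbonate cotransporter of the basolateral membrane, was spread most evenly. It ran from 70.7, 59.0 and 59.0 CPM in ISC through 93.7, 91.9 and 95.6 CPM in the Ccl20-led cluster to 136, 146 and 132 CPM in enterocytes. TA cells had 82.0, 68.7 and 61.7 CPM and overlapped ISC. Slc4a7 (chromosome 14, 14702279 to 14799940), the electroneutral cotransporter NBCn1, was low in ISC (28.2, 33.8 and 28.4 CPM), in TA cells (26.9 CPM over all libraries) and in the Ccl20-led cluster (40.7, 48.4 and 32.3 CPM), and stood at 274, 303 and 212 CPM in enterocytes. Its enterocyte level was 8.83 times the ISC level, against 2.17 times for Slc4a4. Of the 9 genes, Slc4a7 was found in the largest share of thinned tuft cells (54.7%, 35 of 64, 41.8 to 67.2%, median depth 9233 UMIs) and of thinned enteroendocrine cells (40.1%, 55 of 137, 31.9 to 48.9%), with 18.6% in ISC and 17.1% in goblet cells.

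The carbonic anhydrases differed from each other. Car2 (chromosome 3, 14886273 to 14900770) lay at 4.65, 7.28 and 5.38 CPM in ISC and at 53.5, 79.0 and 50.5 CPM in enterocytes. Car4 (chromosome 11, 84957786 to 84966044) was already at 51.1, 36.6 and 46.1 CPM in ISC, peaked in the Ccl20-led cluster at 194, 179 and 256 CPM, and was at 134, 93.7 and 135 CPM in enterocytes. After thinning, 61.3% of the cells of the Ccl20-led cluster held a Car4 UMI (452 of 737, 57.7 to 64.9%) and 5.29% a Car2 UMI (39 of 737, 3.79 to 7.16%). In enterocytes these shares were 40.5% and 29.7%. Car4 was low in Paneth cells, at 4.72, 2.36 and 4.29 CPM (1.37% of thinned cells, 1 of 73), and had only 2, 4 and 3 UMIs in tuft cells.

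The apical exchangers were low in ISC and high in enterocytes. Slc9a3 (chromosome 13, 74121457 to 74169442) went from 5.43, 9.35 and 9.40 CPM in ISC to 90.8, 102 and 120.2 CPM in enterocytes. Slc26a6 (chromosome 9, 108853283 to 108913049) went from 41.7, 45.2 and 32.6 CPM to 383, 433 and 350.0 CPM, and 93.9% of thinned enterocytes held a UMI of it (1964 of 2092), the largest share among the 9 genes. Slc26a3 (chromosome 12, 31390871 to 31473917) went from 32.7, 26.4 and 26.3 CPM to 164, 153 and 148 CPM. In the Ccl20-led cluster, Slc26a3 had reached 78.5% of its enterocyte level, Slc9a3 57.9% and Slc26a6 46.1%, while Car2 had reached 13.97% and Slc4a7 15.5%. Slc26a3 overlaps the gene Gm9359 on the same strand.

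The low values in ISC were set against the enterocyte RNA that other cells carry. In ISC, 8 genes of absorptive enterocytes stood at 3.01% to 6.92% of their enterocyte level (median 4.39%). Slc9a3 in ISC was at 7.58% of its enterocyte level, Car2 at 9.34% and Slc26a6 at 10.2%, all somewhat above that range. Slc4a7 was at 11.3%, Slc26a3 at 18.5%, Car4 at 37.2% and Slc4a4 at 46.2%. How much of the first 3 values comes from carried-over RNA was not tested.

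ISC, TA cells, the Ccl20-led cluster and enterocytes (4641 cells) were then put in an order from stem cell to enterocyte by diffusion pseudotime and divided into 5 bins of 928 or 929 cells. The order was built without the 9 genes, and Lgr5, Mki67 and Apoa4 peaked in bins 1, 2 and 5. The mean bin of a gene, weighted by its CPM, was 1.39 for Slc12a2 and 2.30 for Cftr, 3.20 for Car4, 3.47 for Slc4a4 and 3.72 for Slc26a3, and 3.99 for Slc9a3, 4.05 for Slc26a6, 4.23 for Slc4a7 and 4.31 for Car2. Slc12a2 went from 711, 652 and 594 CPM in the first bin to 14.3, 7.91 and 10.9 CPM in the third. Cftr went over the same bins from 131, 112 and 108 CPM to 53.2, 51.7 and 47.8 CPM. Slc12a2 was thus 159 times higher in the first bin than in the last, and Cftr 3.51 times.

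Car4 had its peak in the third bin, at 218, 203 and 282 CPM, and was at 52.1, 23.8 and 53.0 CPM in the last. Slc26a3 was highest in the fourth bin in each library and Slc26a6, Slc4a7 and Car2 in the last. Between the third bin and the fourth, Slc4a7 went from 49.2, 58.1 and 37.1 CPM to 244, 288 and 195 CPM, and Car2 from 10.2, 11.6 and 7.85 CPM to 43.1, 77.5 and 39.7 CPM. Slc9a3 was spread more evenly over these bins, with 68.2, 77.7 and 92.0 CPM in the third bin, 88.8, 89.6 and 121 CPM in the fourth and 92.7, 113 and 118 CPM in the last. Mean bins differed little by genotype: the mean bin of the Arid3a cKO libraries minus that of WT ran from -0.06 (Cftr) to 0.05 (Slc9a3) of 5 bins.

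**Figure D3:**
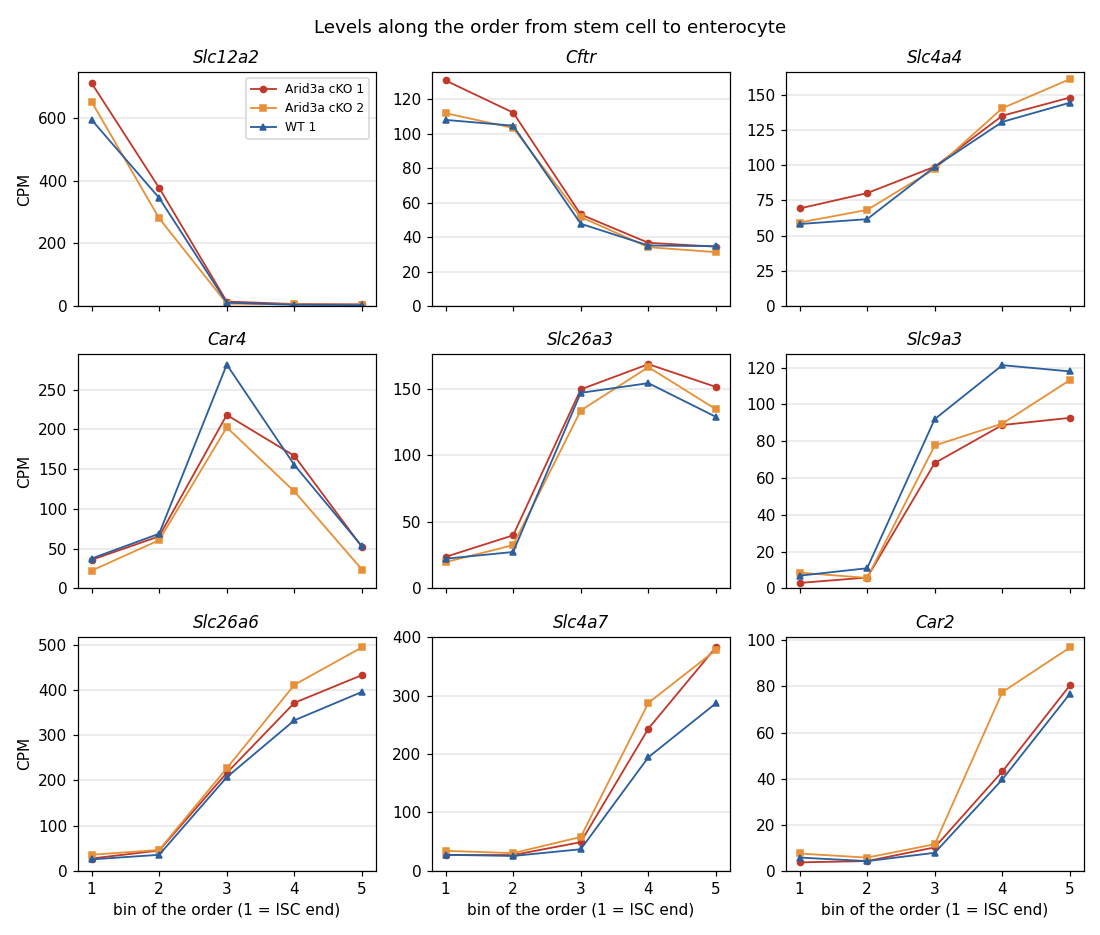
CPM (y axis, each panel from 0) of the 9 genes in 5 bins of the order from ISC to enterocyte (x axis), with 1 line per library. Slc12a2 and Cftr were highest in the first bin, Car4 peaked in the third, and Car2 and Slc4a7 were highest in the last.

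The enterocyte clusters separated the genes further. The S100g-led cluster made up 19.6% of the cells of bin 4 and 23.3% of bin 5, beside 32.9% and 70.4% for the Dnase1-led cluster. Whether these clusters differ by maturity or by region of the gut was not tested. Car4 was highest in the Ms4a18-led cluster, at 239, 208 and 249 CPM, intermediate in the Dnase1-led cluster at 93.5, 57.7 and 89.9 CPM, and lowest in the S100g-led cluster at 27.2, 11.8 and 29.4 CPM. Car2 ran the opposite way, at 16.2, 45.6 and 17.1 CPM, then 44.3, 49.1 and 51.3 CPM, then 145, 185 and 113 CPM. Slc4a7 followed Car2, with 96.9, 152 and 81.5 CPM in the Ms4a18-led cluster and 737, 673 and 605 CPM in the S100g-led cluster. In no library did the Ms4a18-led and S100g-led values of these 3 genes overlap in their counting intervals. Slc26a3 was far flatter, between 126 and 184 CPM in these 3 clusters, and so was Slc9a3, between 76.1 and 124 CPM. Slc4a4 was at 215, 221 and 213 CPM in the S100g-led cluster, above its 106 to 128 CPM in the other 2.

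**Figure D4:**
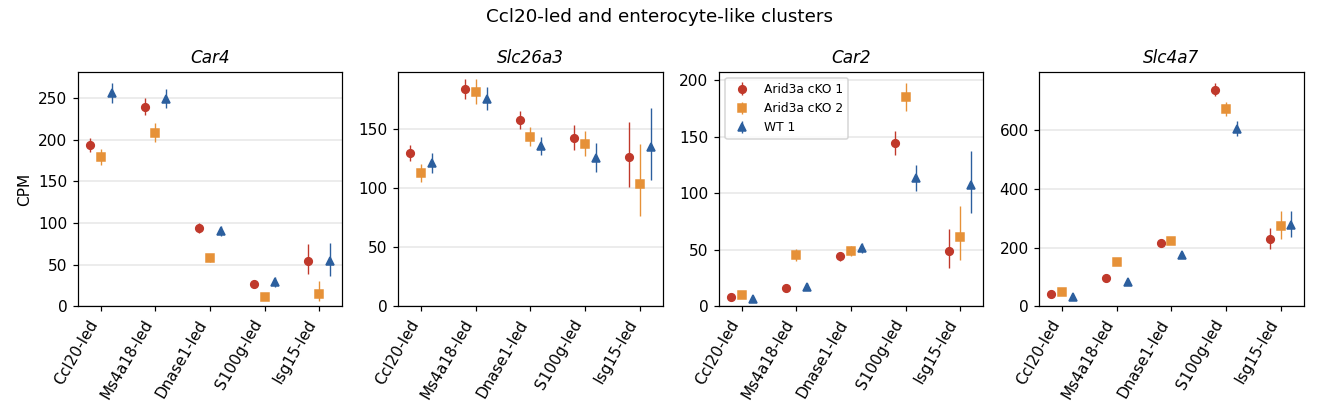
CPM (y axis, from 0) of Car4, Slc26a3, Car2 and Slc4a7 in the Ccl20-led cluster and the 4 enterocyte-like clusters (x axis), with 1 point per library and exact 95% Poisson intervals. Among the Ms4a18-led, Dnase1-led and S100g-led clusters, Car4 was lowest and Car2 and Slc4a7 were highest in the S100g-led one in each library.

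As a description over the 13 clusters, which share libraries and were summed over them, Car2 was the gene most like Slc4a7 among 10931 genes and Slc4a7 the most like Car2 (Pearson r of log2(CPM + 5) 0.96). Slc12a2 was most like Nap1l1, Smoc2 and the stem cell marker Olfm4 (r 0.98, 0.97 and 0.97). Cftr was most like Mpzl2, Gcsh and Mrpl47 (r 0.96, 0.95 and 0.95), and Car4 most like Gstp3, Naip1 and Slc28a3 (r 0.94, 0.92 and 0.91). Slc9a3 was most like Exoc3l4, Creb3l3 and Slc51b (r 0.99 for each), Slc26a6 most like Slc25a45, Adh6a and Maf (r 0.99 for each), and Slc26a3 most like Tkfc, Ugt2a3 and Ces2g (r 0.99 for each). Slc4a4 was most like Prap1, Cryl1 and Pigr (r 0.98, 0.97 and 0.97). The remaining genes were Rps6ka5 and Gsdmd for Car2 (r 0.94 and 0.92) and Itgb5 and Lrrc57 for Slc4a7 (r 0.95 and 0.94). Slc12a2 and Slc9a3 were the most opposed of the 9 (r -0.87).

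To ask whether loss of Arid3a alters these levels, each Arid3a cKO library was compared with WT within a cell class. A gene was called shifted when its libraries averaged 10 CPM or more and both Arid3a cKO libraries gave a log2 ratio of CPM + 5 of 0.5 or above, or both -0.5 or below. With 1 WT library the spread between WT animals was not measured, so no test was run, and both ratios share the WT value. In enterocytes 0 of the 9 genes were shifted, where 88 of 6430 genes (1.37%) were, 0.575% higher and 0.793% lower. In ISC and TA cells 0 were shifted, against 0.737% of 7737 genes (0.323% higher, 0.414% lower), and in the Ccl20-led cluster 0, against 1.09% of 6964 genes (0.445% higher, 0.646% lower). At these rates fewer than 1 of 9 genes would be called, so the counts of 0 do not set the 9 genes apart. Slc12a2 did not reach 10 CPM in enterocytes, Car2 and Slc9a3 did not in ISC and TA cells, and Car2 did not in the Ccl20-led cluster. The median of the mean log2 ratios over the 9 genes was 0.09 in enterocytes, beside -0.02 over all genes. In ISC and TA cells it was 0.09, beside 0.01.

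Below that threshold, the counting intervals of both Arid3a cKO libraries lay above that of WT for 2 of the 9 genes (8.32% of the 6430 genes) and below it for 1 (11.7%), a comparison added after the values had been seen. These intervals leave out the spread between animals, and they are narrow for abundant genes, so the 3 genes are given by their values only. Slc4a7 in enterocytes was at 274 CPM (267 to 280.0) and 303 CPM (296 to 311), while WT had 212 CPM (206 to 218), so the log2 ratios were 0.36 and 0.51. Slc4a7 was also higher in the Ccl20-led cluster, with ratios of 0.29 and 0.52. Slc26a6 was at 383 CPM (376 to 391), 433 CPM (424 to 442) and 350.0 CPM (342 to 358), with ratios of 0.13 and 0.30. In ISC and TA cells Slc26a6 was likewise above WT, at 35.7, 39.4 and 29.8 CPM (0.23 and 0.35). That mean ratio of 0.29 was 0.11 with cells of at least 500 genes and at most 25% mitochondrial UMIs and 0.42 without doublets. Slc9a3 was lower, at 90.8 CPM (87.2 to 94.5), 102 CPM (97.7 to 106) and 120.2 CPM (116 to 125.0), with ratios of -0.39 and -0.23. For these 3 the mean ratio exceeded the gap between the Arid3a cKO libraries. In enterocytes this held for 4 of the 9 genes and for 3592 of all 6430 genes, so it does not set the 3 apart.

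Values within the enterocyte clusters come from the same cells and the same WT library and are no independent check. Slc9a3 was also lower in the Ccl20-led cluster, at 53.3, 58.4 and 71.7 CPM (-0.40 and -0.27). Enterocytes of the S100g-led cluster, in which Slc4a7 and Car2 are highest, made up 18.7% and 22.7% of enterocytes in the Arid3a cKO libraries and 15.4% in WT. Within that cluster Slc4a7 had log2 ratios of 0.28 and 0.15, within the Dnase1-led cluster 0.29 and 0.34, within the Ms4a18-led cluster 0.24 and 0.86, and within the Isg15-led cluster of 58 cells -0.28 and -0.02. With the 4 clusters weighted equally its mean ratio was 0.19, against 0.44 over all enterocytes. How far the makeup of the enterocytes accounts for this was not tested.

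**Figure D5:**
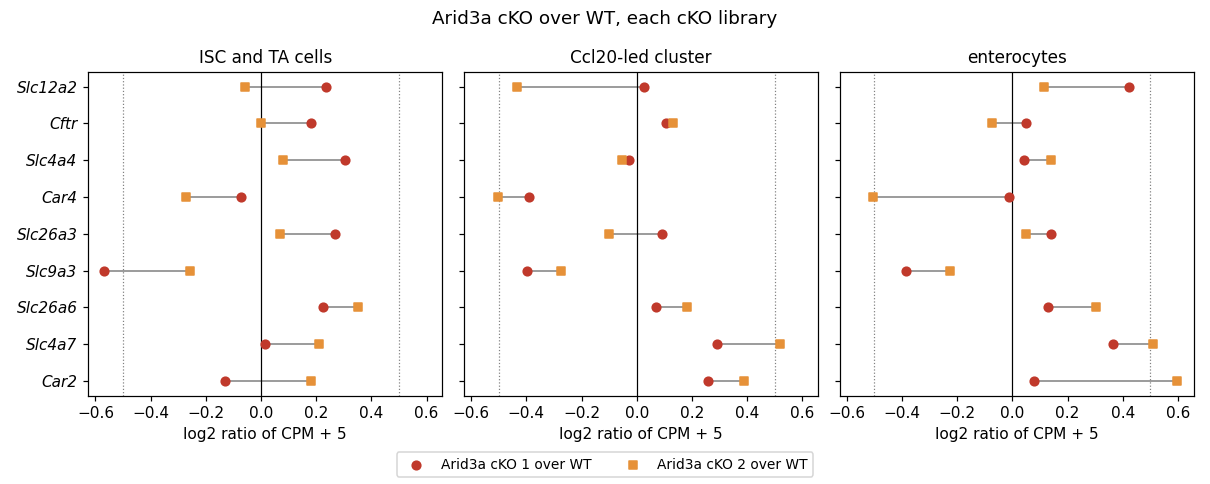
Log2 ratio of CPM + 5 of each Arid3a cKO library over WT (x axis) for the 9 genes (y axis) in ISC and TA cells, the Ccl20-led cluster and enterocytes. Dotted lines mark -0.5 and 0.5, grey lines join both libraries of a gene, and for no gene do both points lie beyond the same dotted line.

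The carbonic anhydrases differed from WT mainly in 1 library. Car2 in enterocytes was at 53.5, 79.0 and 50.5 CPM, which gave log2 ratios of 0.08 and 0.60. In Arid3a cKO 2, 1 of 598 enterocytes held 147 of the 1636 Car2 UMIs (8.99%). The top cell held 1.62% in Arid3a cKO 1 and 1.49% in WT. Car4 was at 134, 93.7 and 135 CPM, with ratios of -0.01 and -0.51. Arid3a cKO 1 and WT were thus close for both genes and Arid3a cKO 2 stood apart. With the enterocyte clusters weighted equally the mean ratio of Car2 was 0.023, against 0.34. Of these 4 clusters, Car2 was higher in both Arid3a cKO libraries in 1, the S100g-led one, at 145, 185 and 113 CPM. It was lower in both in 2, among them the Isg15-led cluster of 58 cells, at 48.9, 61.6 and 108 CPM, which equal weighting counts as much as the others. Without Arid3a cKO 1, 3 genes passed the threshold (Car2, Car4 and Slc4a7), and without Arid3a cKO 2, 0 did. In the Ccl20-led cluster Car4 was lower in both, at 194 CPM (186 to 202) and 179 CPM (170 to 189) against 256 CPM (244 to 268), with ratios of -0.39 and -0.50.

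The remaining genes showed smaller differences. Slc26a3 and Slc4a4 in enterocytes had ratios of 0.14 and 0.05 and of 0.04 and 0.14, and Cftr had 0.05 and -0.07. In ISC and TA cells Slc12a2 was at 548, 446 and 465 CPM and Cftr at 121, 106 and 106 CPM, so for Slc12a2 WT lay between the Arid3a cKO libraries and Cftr matched WT closely in Arid3a cKO 2. The shares of thinned ISC with a Cftr UMI were 61.3% (56.5 to 65.9%), 52.2% (46.1 to 58.4%) and 55.7% (50.4 to 60.9%), again with WT between the others. In enterocytes these shares were 22.1%, 21.7% and 22.8%.

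Among the 90 pathway genes, 38 reached 10 CPM in enterocytes and 1 was shifted, where 1.37% of all genes were shifted in either direction, so the count is near the background. It was Guca2a, which encodes guanylin, a peptide that acts through the same receptor as uroguanylin. Guca2a was at 74.7, 71.0 and 43.4 CPM, and its log2 ratios were 0.72 and 0.65. Guca2a was named because it passed the threshold, so its place above WT in both Arid3a cKO libraries was fixed by that choice. It lay the other way in ISC and TA cells, at 7.70, 9.92 and 12.5 CPM. In ISC and TA cells 43 pathway genes reached 10 CPM and 0 were shifted. Of the most abundant pathway genes in enterocytes, Guca2b had ratios of 0.15 and 0.20, Atp1b1 of -0.05 and -0.09, the NHE3 scaffold Slc9a3r1 of -0.24 and -0.20, and the chloride channel accessory gene Clca4b of -0.17 and 0.05. Over all 9 lists, 7 of the 38 genes lay above WT in both Arid3a cKO libraries and 22 below it, with a median of -0.06, beside 33.3% of all genes above and 41.9% below.

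Secretory cells gave few UMIs and are given as values. In goblet cells Car4 was at 21.6, 14.5 and 39.6 CPM (66, 56 and 164 UMIs). Car2 in goblet cells was at 3.27, 49.1 and 1.21 CPM, and 94.2% of the 190 UMIs of Arid3a cKO 2 came from 3 cells, 100 of them from 1 cell. Cftr in enteroendocrine cells was at 29.3, 43.2 and 7.20 CPM from 26, 35 and 11 UMIs, with 69.2% and 85.7% of the Arid3a cKO UMIs in 3 cells each.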

How the data were processed

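scRNA-seq counts of 3 libraries were used as deposited by the authors, who counted UMIs per gene and barcode with Cell Ranger; the mouse genome build of that step is not given in the sources used here, and the submitters' processing notes list human builds only. Genes were matched by identifier to GENCODE M21 (GRCm38), in which 51633 of 51912 were found. Cells with at least 1000 genes and at most 15% mitochondrial UMIs were kept, as in the study. The Arid3a cKO libraries differed by a mean chi-square of 40.1 per gene over 12596 genes and were treated as separate samples. A second WT library is not analysed here. Nothing in the labels ties replicates to separate animals beyond their numbers.

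Libraries were joined in Seurat 5.3.0 under R 4.3.3 by its canonical correlation method (3000 features for anchors, 2000 for the 30 principal components) and clustered at resolution 0.3, without the 9 genes, the pathway genes and Arid3a. Clusters were named from at least 3 markers among the top 50 genes, otherwise from at least 50% of a marker list at a fold of at least 1.5. Clusters were known when this scoring was written. The tuft cluster, of low depth, kept its name because 7 tuft markers were in its top 10 genes. Doublets were kept; Scrublet (scanpy 1.11.5) marked 110 of 5594 cells (1.97%).

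UMIs were summed per library and class and scaled to CPM. Ratios used a pseudocount of 5 CPM, which understates changes of low genes. The 9 genes, lists and tests were chosen with earlier results of these data known. The text names the 9 genes, pathway genes shifted in enterocytes or in ISC and TA cells (up to 6 per class), the 5 most abundant pathway genes in enterocytes (1 is not reported here), the 3 genes most like each of the 9 over clusters, and Arid3a. Promoters are from RefSeq (GRCm38.p6), with matches for 7 of 9 genes.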

Additional observations from a re-analysis of the deposited data

How the results depend on the processing

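In all 15 alternatives were run, each for the results it bears on. The mean bins were computed again with 10 bins only. One alternative, adding the Ccl20-led cluster to enterocytes, was chosen after seeing the data. The count of shifted genes in enterocytes was 0 in each alternative that kept both Arid3a cKO libraries, and from 0 to 3 without 1 of them (3 without Arid3a cKO 1). For ISC and TA cells it was 0 throughout. The median in enterocytes moved from 0.09 to 0.18 with cells of at least 500 genes and at most 25% mitochondrial UMIs and to 0.040 with clusters weighted equally, and lay between 0.076 and 0.12 without 1 library. The median in ISC and TA cells lay between 0.068 and 0.18 without 1 library. Of 162 values of single genes, 155 moved by less than the spread (SD) between the Arid3a cKO libraries. Leaving out 1 of these libraries always moves a ratio by less than that SD, so this count includes values that could not move. The ratio of Car2 in enterocytes, 0.34, was 0.60 without Arid3a cKO 1 and 0.076 without Arid3a cKO 2. In enterocytes Cftr kept its sign in 6 of 9 alternatives and each other gene of the set in all 9. The ratio of Car2 fell as low as 0.023, and that of Car4 came as near as -0.014. Keeping a sign therefore does not set Slc9a3 (below WT) or Slc26a6 and Slc4a7 (above it) apart. All alternatives share the WT library. Leaving out 1 Arid3a cKO library cannot reverse a gene with both ratios on the same side. At a pseudocount of 1 CPM 111 genes were shifted in enterocytes, beside 88. With the log2 ratio set to at least 1, enterocytes had 19 shifted genes. For ISC and TA cells the count was 13, beside 57. Leaving out Arid3a cKO 1 or 2 gave 150 and 158 genes for enterocytes, with 97 and 128 for the other class. Not thinned, the share of cells with a Cftr UMI was 90.5% in ISC and 58.0% in enterocytes. The cause of these moves was not tested. Small classes are limited by cell number, with 17 Paneth cells in Arid3a cKO 2. No paired analysis was possible because only replicate number 1 occurs in both groups and no test was run.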
